A study of Mus musculus with 6 samples.

Results

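Effector regulatory T cells are set apart from resting ones by a small group of transcription factors, and the expression of 10 of them was followed here: Prdm1, Irf4, Batf, Maf, Rora, Gata3, Tbx21, Bcl6, Ikzf3 and Id2. They were taken by gene symbol from a table of 18493 genes. All 10 were found once in it, and all 10 had enough reads to be among the 12887 genes tested. The RNA came from CD4+CD25+YFP+ regulatory T (Treg) cells sorted out of spleen and lymph node of untreated female C57BL/6 mice aged 7 weeks, which the design text calls chimeric. The 3 wild-type libraries (WT) came from Foxp3cre/+ mice. The 3 conditional knockout libraries (cKO) came from Foxp3cre/+ TKTfl/fl mice, so that both groups carry the Cre allele and differ in the floxed alleles of Tkt, the gene of the pentose phosphate pathway enzyme transketolase. Cre comes from the Foxp3 locus and therefore acts in cells that express this locus, and the YFP+ gate takes cells in which the Cre allele is active.

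As background, Treg cells that meet antigen pass from a resting to an effector state in which they enter tissues and make more suppressive molecules. Signals from the T cell receptor induce Irf4 and Batf, which bind DNA together at composite elements, and Irf4 in turn supports Prdm1, which encodes the repressor Blimp-1. Maf, Rora, Gata3, Tbx21 and Bcl6 are known from helper T cell lineages and are used by Treg cells that reside in matching tissues or act on matching responses. Ikzf3 (Aiolos) and Id2 are regulators of lymphocyte differentiation found across T cell states.

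The libraries held 17180577 to 18215168 estimated reads. Tkt stood at 97.1 to 126 CPM (reads relative to the scaled size of the library, the usual CPM unit) in WT and at 31.9 to 52.5 CPM in cKO, with an adjusted p of 0.0516 in edgeR's quasi-likelihood test. All 8 markers of Treg cells were detected in every library, and their summed level was 4864 to 5235 CPM in WT and 4345 to 4595 CPM in cKO. Foxp3 itself stood at 458 to 686 CPM in WT and at 559 to 676 CPM in cKO. WT2 and cKO1 had the highest values on the first principal component (25.4 and 33.2). cKO2 lay between them and the other libraries (8.1, against -25.9 to -18.4), so the component does not set the pair clearly apart. Each member's difference is given below also without this pair, a choice made with earlier results known. WT2 was the lowest WT library for 7 of the 10 members, so leaving it out raises their WT means. In RNA from bulk cells, fewer cells that express a factor and less RNA of it per cell cannot be told apart.

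In cKO cells, 9 of the 10 factors had a lower mean than in WT and Ikzf3 had a higher one. For 5 of them (Prdm1, Rora, Maf, Irf4 and Batf) the 3 cKO values were all lower than the lowest WT value; over all genes tested this held for 8.12%, and the reverse order for 6.1%. The same 5 had an unadjusted p under 0.05 with a lower value in cKO, against 5.01% of all genes (7.69% in either direction). None of the 10 passed an adjusted p of 0.05 in edgeR's quasi-likelihood test, which called 0.21% of all genes (0.202% lower and 0.00776% higher), while DESeq2 called Prdm1, Rora, Maf and Irf4 lower and called 0.99% of genes lower (1.15% in either direction). limma-voom called no member and 0.147% of genes (0.14% lower). Without WT2, Prdm1 and Maf were called, with 0.199% of genes called lower and 0.229% in either direction. Without WT2 and cKO1, Prdm1, Maf and Rora were called, with 0.472% called lower and 0.55% in either direction. No member was called with robust empirical Bayes (0.372% of genes, 0.357% lower), with no low-count filter (0.233%, 0.222% lower) or with a stricter filter (0.28%, 0.263% lower), and without any one of the other 5 libraries 0% of genes were called. The median log2 fold change (cKO minus WT) of the 10 factors was -0.42, beside a median of 0.00 over all genes tested. Because earlier results of these data were known when the 10 were chosen, these counts and medians are a description only.

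**Figure D1:**
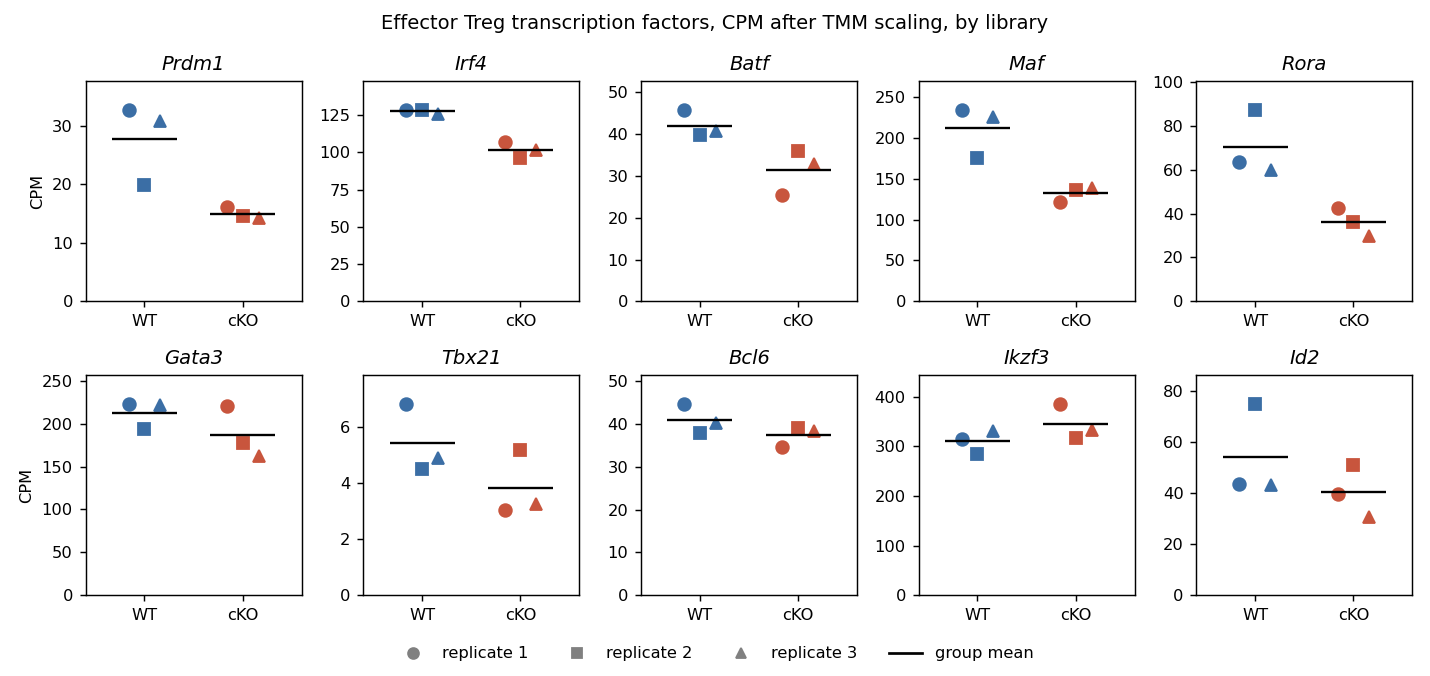
CPM after scaling (y axis, from 0) of each of the 10 factors in the 3 WT (blue) and 3 cKO (red) libraries, with symbols for the replicate number and a line at the group mean. The groups do not overlap for Prdm1, Irf4, Batf, Maf and Rora in the upper row, and overlap for the 5 factors in the lower row.

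Prdm1 encodes Blimp-1, a zinc finger repressor of effector and plasma cell differentiation (Entrez 12142, positions 44437174 to 44528558 of chromosome 10 in mm10). It stood at 32.7, 19.9 and 30.7 CPM in WT1, WT2 and WT3 and at 16.05, 14.5 and 14.1 CPM in cKO1, cKO2 and cKO3. WT2 was the low library of its group, close to the cKO values, and the cKO libraries lay within a narrow band. The means were 27.8 ± 6.90 and 14.9 ± 1.01 CPM (SD, n = 3 each), and the level in cKO was 53.6% of that in WT by the fitted difference. The difference, as log2 fold change, was -0.90 ± 0.19 (SE; adjusted p = 0.165 with edgeR, 0.00419 with DESeq2). Without WT2 it was -1.09 with an adjusted p of 0.0408 in edgeR's test, and without WT2 and cKO1 it was -1.15 with an adjusted p of 0.0253. Plasma cells also express Prdm1 and Irf4 at high levels. Of 6 plasma cell markers 5 were in the table and their sum was 91.4 to 165 CPM in WT and 94.0 to 131 CPM in cKO, nearly all of it Xbp1, which T cells also express. The immunoglobulin joining chain gene Jchain stood at 0.166 to 1.08 CPM in WT and 1.145 to 1.74 CPM in cKO, and Mzb1 at no more than 0.179 CPM in any library. The part of plasma cells in these values was not tested.

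Irf4, an interferon regulatory factor induced by antigen receptor signals (Entrez 16364, positions 30749233 to 30766981 of chromosome 13), varied least among the WT libraries. Its WT libraries stood at 129, 128 and 126 CPM and its cKO libraries at 107, 96.1 and 102 CPM. The WT values were nearly equal, and all cKO values lay below them. The means were 128 ± 1.62 and 102 ± 5.61 CPM (SD, n = 3 each) and the log2 fold change was -0.33 ± 0.07 (SE; adjusted p = 0.186 with edgeR, 0.0185 with DESeq2). Without WT2 and cKO1 the difference was -0.36 (adjusted p = 0.0955, edgeR). Unlike Prdm1, Irf4 was as high in WT2 as in the other WT libraries.

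Batf encodes the leucine zipper partner of Irf4 at composite sites (Entrez 53314, positions 85686720 to 85709087 of chromosome 12). The WT values were 45.9, 39.7 and 40.7 CPM, and those of cKO1, cKO2 and cKO3 were 25.5, 35.9 and 32.8 CPM. cKO1 was lowest, and cKO2 lay just under the lowest WT library. With means of 42.1 ± 3.31 and 31.4 ± 5.35 CPM (SD, n = 3 each), the log2 fold change was -0.42 ± 0.13 (SE; adjusted p = 0.461 with edgeR, 0.358 with DESeq2). It was -0.29 without cKO1 (adjusted p = 0.701) and -0.33 without WT2 and cKO1 (adjusted p = 0.273), and Batf was called under none of its 20 alternatives.

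Maf, the basic leucine zipper factor c-Maf that drives Il10 in several T cell types (Entrez 17132, positions 115703253 to 115706894 of chromosome 8), was among the most abundant members. It stood at 234, 175 and 226 CPM in WT, against 121, 136 and 139 CPM in cKO. As with Prdm1, WT2 was the low WT library, and it still lay above all cKO libraries. The means were 212 ± 32.1 and 132 ± 9.23 CPM (SD, n = 3 each), and the log2 difference was -0.68 ± 0.12 (SE; adjusted p = 0.113 with edgeR, 0.000196 with DESeq2). Without WT2 the change was -0.80 (adjusted p = 0.0408, edgeR), and without WT2 and cKO1 it was -0.75 (adjusted p = 0.0253). The reads of Maf were not whole numbers in 6 of 6 libraries. Its exons overlap those of an antisense gene, Gm15655, over 440 bases. These bases are summed over annotated exons, so a base in several transcripts can count more than once. The labels do not say whether strand was used in counting, so whether reads of Gm15655 were counted for Maf cannot be told. By the same sum, exons of Rora overlap an antisense gene over 82 bases and those of Bcl6 overlap 1 gene over 21 bases. Those of Gata3 overlap 2 genes over 77 and 155 bases. None of these overlapping genes was in the deposited table. Reads were not whole in 5 libraries for Rora and in 0 for Gata3 and Bcl6.

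Rora, a nuclear receptor of tissue Treg cells and innate lymphoid cells (Entrez 19883, positions 68653404 to 69388246 of chromosome 9), had the largest difference of the 10. The WT libraries stood at 63.4, 87.4 and 59.7 CPM and the cKO libraries at 42.6, 36.0 and 29.97 CPM. Here WT2 was the high library of its group, the opposite of its place for Prdm1 and Maf. The means were 70.2 ± 15.01 and 36.2 ± 6.30 CPM (SD, n = 3 each), and cKO reached 51.6% of the WT level. On the log2 scale the difference was -0.95 ± 0.18 (SE; adjusted p = 0.125 with edgeR, 0.000133 with DESeq2). Without WT2 it was -0.77 (adjusted p = 0.118, edgeR) and without WT2 and cKO1 -0.90 (adjusted p = 0.0403).

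Gata3, the zinc finger factor of type 2 immunity that also stabilises Treg cells in tissues (Entrez 14462, positions 9857078 to 9887953 of chromosome 2), was high in both groups. It stood at 224, 194 and 222 CPM in WT, against 221, 177 and 162 CPM in cKO. The groups overlapped because cKO1 lay among the WT values. The log2 fold change was -0.19 ± 0.13 (SE; 95% interval -0.49 to 0.11; adjusted p = 0.834 with edgeR). Single libraries moved it, to -0.33 without cKO1 and to -0.10 without cKO3, and without WT2 and cKO1 it was -0.39 (adjusted p = 0.0935). Group 2 innate lymphoid cells share Gata3, Rora and Id2 with these cells. Of their 6 markers, Il5 and Il13 stood at no more than 0.113 and 0.120 CPM. Hpgds stood at 4.90 to 5.92 CPM and Areg at 2.45 to 11.8 CPM over the 6 libraries. Klrg1 stood at 6.53 to 7.77 CPM in WT and 0.111 to 0.756 CPM in cKO. The sum of all 6 was 33.4 to 41.2 CPM in WT and 16.6 to 24.4 CPM in cKO. Il1rl1, the interleukin-33 receptor, was the most abundant of them at 15.5 to 18.6 CPM in WT and 7.03 to 10.5 CPM in cKO. Effector Treg cells express Il1rl1 too. The part of innate lymphoid cells in the Gata3, Rora and Id2 values was not tested.

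Tbx21, which encodes T-bet, the T-box factor of type 1 responses (Entrez 57765, positions 97098007 to 97115331 of chromosome 11), was the rarest member. It gave 123, 75 and 87 reads in WT and 52, 95 and 58 reads in cKO, which is 6.82, 4.49 and 4.90 CPM against 3.02, 5.18 and 3.23 CPM. cKO2 lay above 2 of the 3 WT libraries. The log2 fold change of -0.50 ± 0.28 (SE) had a 95% interval from -1.15 to 0.15 (adjusted p = 0.785 with edgeR), which spans 0. It was -0.30 without WT1, -0.79 without cKO2 and -0.48 without WT2 and cKO1. CD8 T cells and NK cells express Tbx21 as well. Of their 7 markers, Ncr1 stood at 0 in 5 libraries and at 0.116 CPM in cKO1, Klra8 at no more than 0.116 CPM, and the sum was 37.5 to 42.4 CPM in WT and 34.7 to 41.9 CPM in cKO. Cd8b1, with the highest mean over the 6 libraries, stood at 12.7 to 15.1 CPM in WT and 14.4 to 17.8 CPM in cKO. Nkg7, a granule gene of cytotoxic cells, was above it in each WT library, at 15.5 to 21.4 CPM, and stood at 9.83 to 14.1 CPM in cKO, without overlap (log2 difference -0.66, adjusted p = 0.304). The part of these cells in the Tbx21 values was not tested.

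Bcl6, the repressor of follicular T cells and germinal centre B cells and an antagonist of Blimp-1 (Entrez 12053, positions 23965050 to 23988866 of chromosome 16), differed little. Its values were 44.8, 38.0 and 40.3 CPM in WT, against 34.7, 39.2 and 38.3 CPM in cKO, with overlapping groups. On the log2 scale cKO minus WT was -0.13 ± 0.09 (SE; 95% interval -0.35 to 0.08; adjusted p = 0.844 with edgeR). It was -0.06 without WT1, -0.08 without cKO1 and -0.13 without WT2 and cKO1. The summed level of 6 markers of follicular helper T cells and germinal centre B cells was 75.5 to 100.04 CPM in WT and 61.5 to 67.7 CPM in cKO. The one with the highest mean, Sh2d1a, an adaptor of T cells, stood at 34.5 to 40.2 CPM in WT and 27.5 to 29.98 CPM in cKO (log2 fold change -0.41, adjusted p = 0.177).

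Ikzf3, encoding the Ikaros family factor Aiolos (Entrez 22780, positions 98464610 to 98546031 of chromosome 11), was the only member with a higher mean in cKO. It stood at 315, 285 and 330 CPM in WT, against 386, 316 and 334 CPM in cKO. Only cKO1 and cKO3 lay above all WT libraries. Its log2 fold change was 0.16 ± 0.10 (SE; 95% interval -0.08 to 0.40; adjusted p = 0.829 with edgeR), and it was 0.10 without WT2, 0.07 without cKO1 and 0.01 without both.

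Id2, a helix-loop-helix protein that binds E proteins and keeps them from DNA (Entrez 15902, positions 25093799 to 25096092 of chromosome 12), varied most within WT. It stood at 43.7, 75.2 and 43.1 CPM in WT, against 39.8, 51.0 and 30.6 CPM in cKO. WT2 was far above the other WT libraries, and cKO2 lay above WT1 and WT3. The log2 fold change was -0.41 ± 0.26 (SE; adjusted p = 0.824 with edgeR), and it was -0.10 without WT2, -0.25 without cKO3, -0.62 without cKO2 and -0.09 without WT2 and cKO1.

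**Figure D2:**
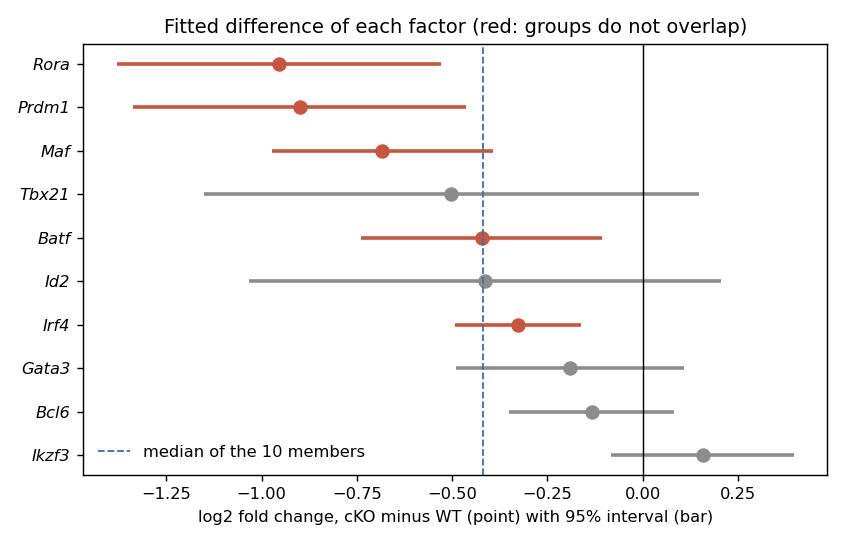
Fitted log2 fold change (x axis, cKO minus WT; points) with its 95% interval (bars) for the 10 factors (y axis), in red where the groups do not overlap. The intervals of Rora, Prdm1, Maf, Batf and Irf4 lie below 0 and those of the other factors span it, and the dashed line marks the median of -0.42.

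The order of the members by level was read from the authors' FPKM values (reads scaled by gene length and library depth), because CPM does not correct for gene length. In WT, Ikzf3 led with 74.0 ± 7.42 FPKM, followed by Gata3 (65.9 ± 6.74), Maf (57.9 ± 9.99), Batf (47.7 ± 4.66) and Id2 (42.7 ± 13.4 FPKM; SD, n = 3 each). Each of these overlapped the next in its WT libraries, so their order is not resolved. Irf4 followed at 26.0 ± 0.791 FPKM and Bcl6 at 12.1 ± 1.35 FPKM, each apart from its neighbours in every WT library. Rora (6.38 ± 1.22 FPKM) and Prdm1 (5.12 ± 1.32 FPKM) overlapped, and Tbx21 was lowest at 2.12 ± 0.526 FPKM. In cKO the order of the means was identical, from Ikzf3 at 81.8 ± 6.59 to Tbx21 at 1.49 ± 0.481 FPKM. Rora and Prdm1, with the largest log2 differences, were thus among the 3 lowest levels, and Maf, high in the order, stood at 35.9 FPKM in cKO.

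**Figure D3:**
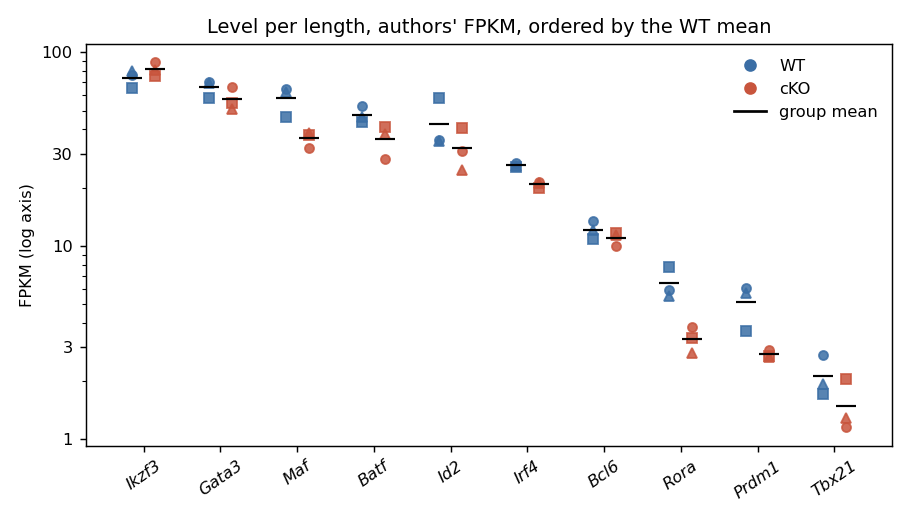
FPKM (y axis, log scale) of the 10 factors in each WT (blue) and cKO (red) library, ordered by the WT mean, with a line at each group mean. Levels in WT run from 74.0 FPKM for Ikzf3 to 2.12 FPKM for Tbx21, and the cKO means follow the same order.

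The factors did not vary as one unit among the libraries. Within WT, WT2 was the lowest library for 7 of the 10 members and the highest for 2, Rora and Id2. Irf4 was the remaining member, nearly equal in the 3 WT libraries. Likeness of profile was measured as the root mean square difference between mean-centred log2 CPM values over the 6 libraries, where 0 is an identical pattern. By this measure Prdm1 was closest to Maf among the members (0.18 log2 units) and Rora to Id2 (0.34). Many genes that are no member were closer. With rank 1 as the closest of 9341 genes, Maf had rank 11 for Prdm1 and Prdm1 had rank 88 for Maf. Id2 had rank 162 for Rora, and Rora had rank 1547 for Id2. Of 9341 named genes with a mean of at least 5 CPM, the gene closest to Prdm1 was Coro2b, which encodes a coronin that binds actin (0.10), and the gene closest to Maf was Bmp7, a growth factor of the TGF-beta superfamily (0.07). Rora was closest to Fam110a (0.06), Irf4 to Vps54, of the complex that tethers vesicles at the Golgi (0.04), and Id2 to Tceal9 (0.09). Batf was closest to Dlgap5, a protein of the mitotic spindle (0.01), and Tbx21 to Mybl2, a transcription factor of the cell cycle (0.13). Dlgap5 was, like Batf, lowest in cKO1 at 6.11 CPM, against 7.74 to 11.04 CPM elsewhere. The closest genes to Gata3, Bcl6 and Ikzf3 were Ubfd1 (0.06), Dhrs4 (0.02) and Ubqln1 (0.02). These are the best matches out of 9341 genes over only 6 libraries, so they describe the values and show no shared function. Flat profiles also give small differences, so distances are not comparable between members. The SD of log2 CPM was 0.12 for Bcl6 and 0.14 for Ikzf3, against 0.57 for Rora.

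The reads of a member were set against those of another gene in the same library, as a ratio. This was done for 4 pairs chosen after the members' values had been seen. Such a ratio does not depend on the scaling between libraries. Prdm1 and Bcl6 repress each other, and the ratio of their reads was 0.730, 0.524 and 0.763 in WT and 0.462, 0.370 and 0.369 in cKO, without overlap. Bach2 restrains effector differentiation and shares binding sites with AP-1 factors such as Batf. The Batf to Bach2 ratio was 0.298, 0.222 and 0.233 in WT and 0.109, 0.196 and 0.171 in cKO, again without overlap. The ratios of Irf4 to Irf8 (4.38 ± 0.575 and 3.53 ± 0.888) and of Id2 to Id3 (1.89 ± 0.948 and 1.18 ± 0.392; SD, n = 3 each) overlapped between the groups. In an exact two-sided permutation test, which cannot give a p below 0.1 with 3 against 3, p was 0.1 for the first pair and for Batf to Bach2, 0.3 for Irf4 to Irf8 and 0.4 for Id2 to Id3. Adjusted over the 4 pairs these became 0.2, 0.2, 0.4 and 0.4. The adjustment does not cover the choice of the pairs after the values were seen, so these p-values are a description only.

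**Figure D4:**
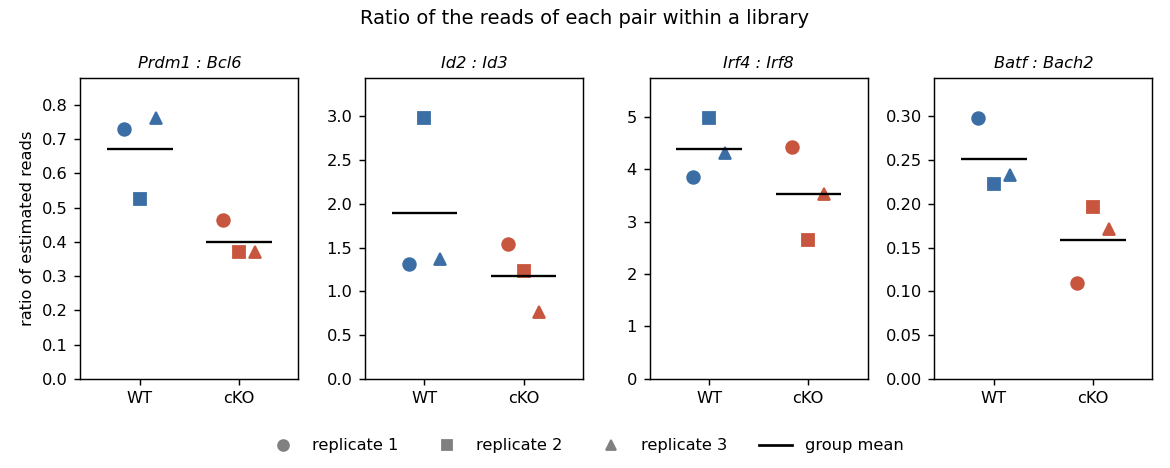
Ratio of estimated reads (y axis, from 0) of 4 pairs of factors in each WT (blue) and cKO (red) library, with symbols for the replicate number and a line at the group mean. The cKO libraries lie below all WT libraries for Prdm1 to Bcl6 and Batf to Bach2, and overlap with them for Id2 to Id3 and Irf4 to Irf8.

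The sequences before the start sites of the factors that separated the groups are shown because the means of these genes were lower together in cKO. RefSeq (GRCm38.p6, the build of mm10) gave entries for 8 of the 10 members, Prdm1, Rora, Irf4 and Batf among them. Each window covers the 250 bases before the start, and that of Batf was shortened to 199 bases because an annotated exon begins there. The windows of Prdm1 (chr10:44458749-44458998, minus strand) and Rora (chr9:68653536-68653785, plus strand) lie within the span of the gene, before an inner start. Those of Irf4 (chr13:30748983-30749232) and Batf (chr12:85686470-85686668), both on the plus strand, lie before the gene. Capitals mark matches, on either strand, to the motifs searched.
Prdm1: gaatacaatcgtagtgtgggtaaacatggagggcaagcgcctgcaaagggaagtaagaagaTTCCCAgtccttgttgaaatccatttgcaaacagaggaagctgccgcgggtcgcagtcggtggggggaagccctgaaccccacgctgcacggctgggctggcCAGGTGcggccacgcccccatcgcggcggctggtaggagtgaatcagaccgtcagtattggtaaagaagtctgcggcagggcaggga
Rora: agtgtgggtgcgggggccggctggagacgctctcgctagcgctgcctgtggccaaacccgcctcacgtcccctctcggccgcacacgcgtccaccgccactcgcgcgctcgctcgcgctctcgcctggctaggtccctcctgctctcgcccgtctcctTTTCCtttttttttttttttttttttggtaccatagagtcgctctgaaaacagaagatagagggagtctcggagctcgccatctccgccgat
Irf4: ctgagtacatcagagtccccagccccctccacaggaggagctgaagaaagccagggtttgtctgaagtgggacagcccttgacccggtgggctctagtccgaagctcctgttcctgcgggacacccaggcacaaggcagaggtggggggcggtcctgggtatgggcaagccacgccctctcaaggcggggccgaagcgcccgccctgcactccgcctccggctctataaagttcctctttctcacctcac
Batf: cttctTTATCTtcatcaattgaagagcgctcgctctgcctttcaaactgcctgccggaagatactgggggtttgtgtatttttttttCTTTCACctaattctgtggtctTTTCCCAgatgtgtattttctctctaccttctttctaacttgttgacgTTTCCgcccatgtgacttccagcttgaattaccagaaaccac

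The AP-1 motif was taken as TGAGTCA, with TGACTCA as its other strand, and that of interferon regulatory factors as GAAACT. For Blimp-1 the letters GTGAAAG were searched, for GATA factors AGATAA, for Maf TGCTGAC and for ROR factors AGGTCA. The E boxes were CACCTG in one form, with CAGCTG as the other form. The T box was GGTGTGA, the Ikaros motif TGGGAA and the NFAT motif GGAAA. The Prdm1 window held 1 E box of the form CACCTG, present in 17.2% of all 32851 promoters, and 1 Ikaros motif, present in 21.6%. Rora held 1 NFAT motif, which 55.6% of promoters have, and Irf4 held none of the motifs. Batf held 1 Blimp-1 motif (3.57% of promoters), 1 GATA motif (9.99%), 1 Ikaros motif and 2 NFAT motifs; the Ikaros match and an NFAT match overlap and appear as one run of capitals. No AP-1 motif (4.46% of promoters) and no interferon regulatory factor motif (13.5%) was found in these 4 windows. Among the other members, Tbx21 had 2 and Gata3 had 1 match to the interferon regulatory factor motif. All 250 bases of the Gata3 window are annotated exon and lie within the span of the gene.

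Genes known as targets of the factors had mostly lower means in cKO cells. This list was chosen with earlier results of these data known, so its counts describe the list and test nothing. Of 46 such genes 41 were tested, 3 were called lower and none higher by edgeR, where 0.202% of all genes were called lower. For 21 targets the cKO values were all below the WT values, and for 1 all above (8.12% and 6.1% of all genes tested). The median log2 fold change was -0.57, and 32 of the 41 had a value below 0. The called genes were Tigit, an inhibitory receptor (log2 fold change -1.26, adjusted p = 0.0269), Icos, a costimulatory receptor (-0.81, 0.0449), and Klrg1, a lectin-like receptor of terminal effector cells (-3.93, 0.0449). Klrg1 is also one of the markers of group 2 innate lymphoid cells. None of the 3 was called when WT1, WT3, cKO1, cKO2 or cKO3 was left out. Without WT2, Tigit and Icos were called along with Ccr4 and Itgae. DESeq2 called 16 of the targets lower and none higher, where it called 0.99% of all genes lower and 1.15% in either direction.

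By regulator, the 6 genes listed for Prdm1 with Irf4 had a median of -1.02, all below 0. Il10, the suppressive cytokine, stood at 42.2, 64.1 and 48.9 CPM in WT, against 26.7, 23.4 and 16.8 CPM in cKO (adjusted p = 0.0978; log2 difference -1.21, SE 0.21). Gzmb, encoding granzyme B, stood at 12.1, 8.91 and 9.57 CPM and at 3.49, 5.23 and 4.73 CPM (adjusted p = 0.0983). In both, all cKO libraries lay below all WT libraries. The 9 genes listed for Irf4 and Batf had a median of -0.82, and 6 of them did not overlap between groups; Tnfrsf9, a receptor of activated T cells, had a log2 fold change of only -0.08. The 6 genes of Tbx21 had a median of -0.90, although Tbx21 itself overlapped. Among them Cxcr3, a chemokine receptor of type 1 responses, stood at 40.2, 32.6 and 31.1 CPM in WT, against 9.71, 16.1 and 14.4 CPM in cKO (adjusted p = 0.056; log2 difference -1.37, SE 0.19).

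Fewer genes could be tested for the other factors. Of 5 genes listed for Gata3, 3 were tested. Ccr4, a receptor of skin-homing T cells, stood at 62.1, 50.1 and 55.4 CPM in WT, against 29.2, 31.3 and 35.1 CPM in cKO (adjusted p = 0.052; log2 difference -0.81, SE 0.11). For Maf, 3 of 5 were tested, and Il9r, the interleukin-9 receptor, differed by -1.03 ± 0.14 on the log2 scale (SE; adjusted p = 0.0522). The 5 genes of Rora had a median of -0.15. In that group Nr1d1, a repressor of the molecular clock, had a value of -0.58 (adjusted p = 0.465), and Tnfrsf25 was higher in every cKO library (0.16, adjusted p = 0.665). The 5 genes listed as targets of Bcl6 had a median of -0.13 and overlapped in all cases; Gpr183, a receptor that positions lymphocytes, had the lowest p among them (-0.40, adjusted p = 0.614). The 7 genes known to be repressed by Prdm1 or Bcl6 had a median of 0.13, and 5 of them had a value above 0. Among the 7, Cxcr5 is listed for Maf too and Il7r for Rora too. The exception with the lowest p was Cxcr5, the receptor of follicular T cells (-0.47, adjusted p = 0.49).

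**Figure D5:**
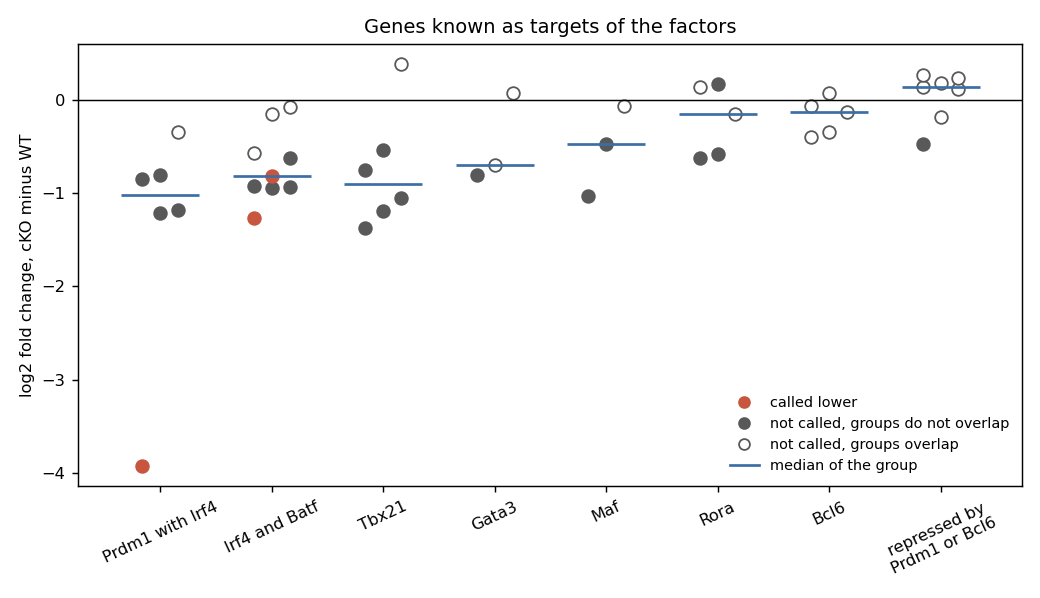
Log2 fold change (y axis, cKO minus WT) of the tested genes known as targets of each factor (x axis), in red where called lower, filled grey where not called but without overlap of the groups, and open where the groups overlap; blue lines mark medians. The medians are -1.02 for Prdm1 with Irf4, -0.82 for Irf4 with Batf, -0.90 for Tbx21 and -0.70 for Gata3. They are -0.47 for Maf, -0.15 for Rora, -0.13 for Bcl6 and 0.13 for genes that Prdm1 or Bcl6 represses. Ccr6, Cxcr5 and Il7r are drawn in each group that lists them.

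Relatives and partners of the 10 factors lay on both sides of 0. Of 50 such genes 43 were tested. None was called by edgeR (0.21% of all genes) and DESeq2 called 1 lower (0.99% of all genes). Of the 43, 8 had an unadjusted p under 0.05 in edgeR's test, against 7.69% of all genes. Their median log2 fold change was 0.03, with 19 values below and 24 above 0, and 7 had all cKO libraries below WT and 4 all above (8.12% and 6.1% of all genes tested). Fosb, an AP-1 subunit, differed by -1.10 ± 0.31 on the log2 scale (SE; adjusted p = 0.356), with cKO1 and cKO3 at 285 and 367 CPM, cKO2 at 715 CPM and the WT libraries at 930 to 1024 CPM. Irf5, another interferon regulatory factor, had a value of -0.46 (adjusted p = 0.464) and Zbtb32, a repressor related to Bcl6, one of -0.60 (adjusted p = 0.541). Close paralogs of members had values of 0.02 (Irf8), 0.11 (Ikzf1) and 0.26 (Id3), none of them called.

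Other transcription factors of activated or tissue Treg cells had mostly lower means in cKO. Earlier results of these data were known when they were listed, so the counts are a description only. Of 20 listed, 19 were tested, with a median of -0.29 and 14 values below 0. By edgeR 1 was called lower, where 0.202% of all genes were called lower. For 6 the cKO values were all below the WT values, and for 0 all above (8.12% and 6.1% of all genes tested). Tox2, an HMG-box factor, was called lower (log2 fold change -1.28, adjusted p = 0.0449), a call that was lost without WT1, WT3, cKO1, cKO2 or cKO3. Ahr, the receptor for aryl hydrocarbons, stood at 50.3, 50.05 and 52.6 CPM in WT, against 36.5, 35.3 and 36.2 CPM in cKO (adjusted p = 0.052; log2 difference -0.50, SE 0.07). Klf6, a zinc finger factor, had a value of -0.55 (adjusted p = 0.233, edgeR). Hif1a, a transcription factor subunit regulated by oxygen, had one of -0.34 (adjusted p = 0.527, edgeR). In both, every cKO library lay below WT.

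The transcription factors of resting and central T cells had mostly higher means in cKO. As with the other lists, they were chosen with earlier results known, and their counts are a description only. All 12 were tested, 10 had a log2 fold change above 0 and the median was 0.17. None was called by edgeR, which called 0.21% of all genes, and 2 had an unadjusted p under 0.05 (7.69% of all genes). DESeq2 called Satb1 and Lef1 higher, where it called 1.15% of all genes in either direction and 24 of 14842 higher. For 3 of the 12 the cKO values were all above the WT values, and for 0 all below (6.1% and 8.12% of all genes tested). Satb1, a chromatin organizer, stood at 369, 399 and 419 CPM in WT, against 556, 511 and 499 CPM in cKO (adjusted p = 0.169; log2 difference 0.40, SE 0.08). Lef1 had a value of 0.32 (adjusted p = 0.304) and Bach2 one of 0.26 (adjusted p = 0.655), both without overlap, whereas Klf3 overlapped (0.30, adjusted p = 0.749). The difference between this list and the 10 effector factors was not tested.

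Markers of further cell types were low beside those of Treg cells. The sum of 9 B cell markers was 20.7 to 22.5 CPM in WT and 14.3 to 36.1 CPM in cKO, with Cd79b, the highest of them on average, at 6.18 to 9.76 CPM. The sum of 8 myeloid and dendritic cell markers, cells that express Irf4, Batf and Id2, was 33.8 to 69.9 CPM in WT and 39.5 to 96.7 CPM in cKO, with Lyz2 at 15.3 to 32.8 and 19.6 to 41.2 CPM. Within WT, WT2 was the highest for these markers. For basophils and mast cells 3 of 5 markers were in the table; Cpa3 and Gata2 stood at no more than 0.359 CPM and Kit at 3.18 to 8.18 CPM. Erythroid genes were high in cKO1, where Hba-a1 stood at 83.6 CPM against no more than 3.11 CPM elsewhere. The part of these cells in the members' values was not tested.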

How the data were processed

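RNA of 6 libraries was sequenced on an Illumina instrument after NEBNext Ultra library preparation, per the series' design text. Per the submitters' processing notes, mm10, DESeq2 1.16.1, featureCounts 1.5.0-p3 and HISAT2 2.0.5 were used, in unstated roles. The authors deposited estimated counts per gene, not normalized, of which 45.4% to 46.3% per library were not whole to within 0.01; no source used here says how fractions arose. The authors also deposited values that behave as FPKM, as judged from reads and lengths. The labels do not state whether counting used strand. Whether a library pools animals is not stated, so the p-values reflect only spread among libraries, which may be technical.

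Counts were rounded. Genes passing filterByExpr (minimum count 10) were scaled by TMM and tested with edgeR 4.0.16 in R 4.3.3 (quasi-likelihood, group as the only term, two-sided), with Benjamini-Hochberg adjustment over 12887 genes and a threshold of 0.05. The same test gave the 95% intervals. The common biological coefficient of variation was 16.7%. Coordinates are from RefSeq GRCm38.p6, counted from 1, and exons from GENCODE M21. Alternatives were DESeq2 1.42.0, limma-voom (limma 3.58.1), other edgeR settings, scalings and filters, the replicate number as a block, each library left out, WT2 and cKO1 left out together, and, for the members, limma on log2(FPKM + 1 or 0.1). The code was tested on simulated counts.

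The members, lists and alternatives were chosen with earlier results of these data known. Named genes were the members, Tkt, every called gene of a list or up to 4 with the lowest p, the most abundant marker of each other cell type and the gene closest in profile to each member. Il10, Gzmb, Tnfrsf9, Tnfrsf25, Itgae, Nkg7, Hpgds, Areg, paralogs in the last sentence on relatives, marker genes given as near 0 and the gene with the lowest p of each target group were added after their values were seen. Values of a few listed genes are not reported here.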

Additional observations from a re-analysis of the deposited data

How the results depend on the processing

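Every one of the 10 factors kept the sign of its difference in all 20 alternatives, and for the 5 whose groups do not overlap, leaving out a library cannot turn the sign. The number of factors called was 0 with edgeR, 4 with DESeq2 and 3 without WT2 and cKO1 together. Leaving out 1 library gave 0 to 2 factors called; the 2 were Prdm1 and Maf without WT2. The median of the 10 ranged from -0.58 (without cKO2) to -0.34 (without WT1). No paired analysis is implied by the labels: same-numbered libraries had correlations of deviations of -0.28, 0.06 and 0.26, and of the 3 WT libraries only WT3 matched its own number best. With the replicate block 0 factors, 0 targets and 0 other activated factors were called, and 0 of all genes (811 at an unadjusted p under 0.05).

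Over all genes, 27 were called by edgeR, 171 by DESeq2, 48 with robust empirical Bayes, 43 with no low-count filter, 71 without WT2 and cKO1 and 0 to 30 with 1 library left out. The targets gave 3 calls, against 16 with DESeq2, 6 with robust empirical Bayes, 6 with no low-count filter, 6 without WT2 and cKO1, and 0 to 4 with 1 library left out. For the other activated or tissue factors 1 call became 3 with DESeq2, 2 with robust empirical Bayes, 2 with the stricter filter, 2 without WT2 and cKO1, and 0 to 1 with 1 library left out. For relatives and partners 0 calls became 1 with DESeq2, 1 without WT2 and cKO1, and 0 to 1 with 1 library left out; for resting factors 0 became 2 with DESeq2. In the order of WT levels, 2 positions changed without WT1 (Id2 before Batf) and 2 without WT2 (Prdm1 before Rora), with 0 as the lowest over the libraries left out, and 6 changed with CPM per kilobase of annotated exon, where Gata3 led and Irf4 stood before Maf and Id2. Among genes that are no member, the log2 fold change turned in sign with 1 library left out for Foxp3 (-0.108 without WT2 to 0.164 without WT3), Il2ra (-0.111 without WT2 to 0.092 without cKO1), Hba-a1 (-0.085 without cKO1 to 5.341 without WT2) and Xbp1 (-0.291 without cKO1 to 0.19 without WT2). Without WT2 and cKO1 together it was -0.172 for Foxp3, -0.024 for Il2ra and 0.029 for Xbp1. The cause of these changes was not tested. Depth limits Tbx21, with 52 to 123 reads per library.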
